A study of Mus musculus with 7 samples.

Results

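The receptor subunit gp130, encoded by Il6st, and 6 genes that act with it were examined in whole E10.5 mouse embryos (10.5 days after conception): Lifr, Jak1, Jak2, Stat3, Socs3 and Pias3. The members were every probe set of the array that its annotation assigns to one of these 7 genes, 19 of 22690 probe sets in all. The arrays were hybridised with RNA from single whole embryos of the FVB inbred strain, 7 in total. Of these, 2 were control embryos from a normal pregnancy and 5 were exposed to maternal diabetes, which had been induced in the dam with streptozotocin, a toxin of insulin-producing cells. Among the 5 exposed embryos, 3 had no neural tube defect (NTD) and 2 had an NTD. Dams were 7 to 9 weeks old when made diabetic and had glucose above 250 mg/dl, and the labels name no transgene or mutation in any group. By the study's description each condition is represented by a single litter, so diabetes and litter cannot be told apart, and the p-values measure the spread between littermates.

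gp130 is the signal-transducing subunit shared by the receptors of the interleukin 6 family of cytokines. It pairs with ligand-binding or partner subunits such as the LIF receptor (Lifr). Ligand binding activates the Janus kinases JAK1 and JAK2 on the receptor tails, which phosphorylate STAT3, a transcription factor that then enters the nucleus. Socs3, itself a target of STAT3, encodes a feedback inhibitor that binds gp130 and the kinases, and Pias3 encodes a protein inhibitor of activated STAT3. In embryos the pathway is known for its roles in stem cell self-renewal, heart muscle growth and the formation of blood and nerve cells.

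The signal is the linear intensity that the MAS5 software computed for each probe set, scaled so that the trimmed mean of every array was 500.2 arbitrary units. The median signal per array was 206 to 218 units. A signal depends on the probes as well as on the transcript, so levels were compared between embryos for 1 probe set and never between probe sets. Whole-embryo RNA was measured, and in it fewer cells of a type cannot be told apart from less RNA per cell. Of 18 marker genes of the neural tube and neurons, of heart muscle and of endothelium, 17 passed the filter on low signals. The filter looks at 2 or more embryos, so it does not show presence in all 7. One embryo stood apart: exposed no NTD embryo 1 had a summed signal of 28487 units over 10 genes of yolk sac endoderm and liver, of which 5 were below the filter. The sum was 2963 and 3132 units in the controls and 1189 to 2253 units in the other exposed embryos, which were all below both controls.

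The promoter windows of Il6st and Socs3 are shown because Il6st encodes gp130 itself and Socs3 is the gene of the 7 best known as a STAT3 target. Each window runs from 250 bases before the annotated transcription start to 50 bases after it and is RefSeq reference sequence of the build GRCm38.p6, 5′ to 3′ on the gene's strand. The Il6st window is chr13:112463820-112464119 on the plus strand, and the Socs3 window is chr11:117969317-117969616 on the minus strand. Capitals mark the STAT motif TTCNNNGAA, which reads the same on both strands.
Il6st: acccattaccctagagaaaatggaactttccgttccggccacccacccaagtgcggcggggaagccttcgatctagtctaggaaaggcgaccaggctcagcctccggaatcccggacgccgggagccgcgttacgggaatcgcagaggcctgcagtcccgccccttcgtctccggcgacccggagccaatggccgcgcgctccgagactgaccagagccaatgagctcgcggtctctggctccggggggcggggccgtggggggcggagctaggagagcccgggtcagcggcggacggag
Socs3: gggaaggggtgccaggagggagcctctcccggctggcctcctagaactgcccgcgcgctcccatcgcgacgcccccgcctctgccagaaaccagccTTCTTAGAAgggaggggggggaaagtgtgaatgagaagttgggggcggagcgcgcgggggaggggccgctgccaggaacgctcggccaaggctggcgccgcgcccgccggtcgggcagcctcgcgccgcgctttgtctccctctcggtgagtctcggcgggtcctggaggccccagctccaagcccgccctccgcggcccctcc
The 7 genes have 9 such windows between them, of 300 bases each, and 1 of the 9 held the motif. That was the Socs3 window, with 1 match starting 154 bases before the transcription start. Of all 32851 windows, 2726 or 8.3% held the motif. The Socs3 window had a GC content of 73.3% and the Il6st window one of 68.3%.

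Of the 19 probe sets, 14 passed the filter on low signals, which asked for a signal no lower than the array's 40th percentile in at least 2 embryos. At least 1 probe set of each gene passed. Exposed and control embryos, 5 against 2, were compared on the log2 scale with limma. None of the 14 was called at an adjusted p under 0.05, where 0.172% of all 14554 tested probe sets were called, and the smallest adjusted p among the members was 0.170. The gene-by-gene test named in the study's methods called 0 of the 14 after Benjamini-Hochberg adjustment. It also called 0 of all 14554 tested probe sets, so it cannot tell the members from the rest. The study combined that test with a further one and a fold change, which was not repeated here. At an unadjusted p under 0.05, 1 of the 14 was lower in exposed embryos, with 8.52% of all tested probe sets so, and 1 was higher, with 7.63% of all so. The lower one was an Il6st probe set and the higher one a Stat3 probe set. These shares lie near the background. The median log2 difference of the 14, exposed minus control, was -0.08, against 0.00 over all tested probe sets, with 8 below and 6 above 0 and a range from -0.69 to 0.45.

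**Figure D1:**
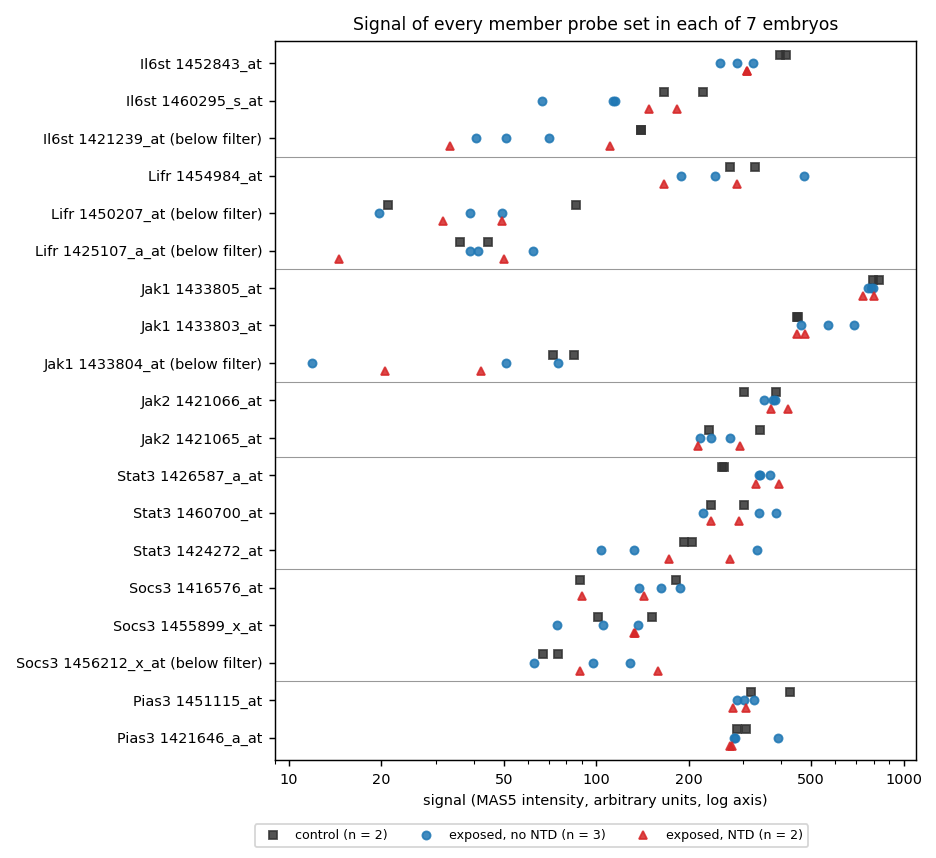
Signal of the 19 member probe sets in each of the 7 embryos, in arbitrary units on a log axis, with control embryos as squares, exposed embryos without NTD as circles and exposed embryos with NTD as triangles. For Il6st 1452843_at all exposed embryos lie below both controls, for Stat3 1426587_a_at all lie above, and 5 probe sets are marked as below the filter.

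Il6st, the gp130 gene, was measured by 3 probe sets, and all of them had a lower mean signal in exposed than in control embryos. The brightest, 1452843_at, had signals of 414 and 396 units in the controls, 252, 288 and 323 units in the exposed embryos without NTD, and 309 and 309 units in those with NTD. Every exposed embryo was thus below both controls. The control mean was 405 ± 13.1 units (SD, n = 2) and the exposed mean 296 ± 27.5 units (SD, n = 5), a ratio of 1.37. The log2 difference was -0.46 (SE 0.15, 95% interval -0.78 to -0.13), with an unadjusted p of 0.0110 and an adjusted p of 0.182 in limma. The exact permutation test gave p = 0.0476 (two-sided), the smallest that the 21 splits of 2 against 5 embryos allow. All 5 exposed embryos lay below both controls in 1 of the 14 tested members, this one, and in 13.4% of all tested probe sets.

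The probe set 1460295_s_at of Il6st gave 222 and 166 units in the controls, 66.4, 115 and 114 units in the exposed embryos without NTD, and 183 and 149 units in those with NTD. The groups overlapped, since 1 exposed embryo with NTD exceeded the lower control. The log2 difference was -0.69 (SE 0.36, 95% interval -1.49 to 0.10, adjusted p = 0.366). Without exposed no NTD embryo 1 it was -0.48, and without control embryo 1 it was -0.49. Set against the brightest probe set over the 7 embryos, its log2 signals had a Pearson r of 0.82, a description over embryos that fall into 2 litters.

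The last Il6st probe set, 1421239_at, lay below the filter, with 1 of 7 embryos at or above the 40th percentile of its array. Its signals were 139.6 and 139.5 units in the controls, 70.2, 51.0 and 40.7 units in the exposed embryos without NTD, and 111 and 33.5 units in those with NTD. All exposed embryos were below both controls here too. In the fit without a filter, its log2 difference was -1.32 (SE 0.45, 95% interval -2.32 to -0.32), with an unadjusted p of 0.0146 and an adjusted p of 0.267. The exact permutation test gave p = 0.0952. With 50 units added to each signal before the log, the log2 difference was -0.81. The annotation lists it under the same transcript sequence as 1460295_s_at. The ratio of control mean to exposed mean was 2.3 for this probe set, 1.55 for 1460295_s_at and 1.37 for 1452843_at. The study itself picked Il6st as a changed gene from these same arrays, so its lower signal here is no independent support for that choice. It reports Il6st as 2.28-fold lower on the arrays. Of the 3 ratios given here, only that of 1421239_at, which lies below the filter, rounds to this value. The study also reports lower Il6st RNA by quantitative PCR in embryos of other pregnancies, which were not analysed here.

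Marker genes of other cell types were set beside these values. The summed signal of 6 genes of primitive red blood cells was 52066 and 54326 units in the controls and 64485 to 83689 units in the exposed embryos. All 6 of them (Hba-x, Hbb-bh1, Hbb-y, Klf1, Gata1 and Alas2) were higher in every exposed embryo than in both controls, by 0.27 to 0.72 on the log2 scale, and none was called, with an adjusted p between 0.0984 and 0.272 in limma. Exposed no NTD embryo 1 had the highest sum of red blood cell genes, the highest sum of yolk sac genes and the lowest Il6st 1452843_at signal. Without that embryo the log2 difference of 1452843_at was -0.40. Summed macrophage and leukocyte genes, 8 in number, gave 1457 and 1657 units in the controls and 1339.8 to 1573 units in exposed embryos, with Ptprc and Fcer1g below the filter. The 6 neural genes together gave 6861 and 7053 units in the controls and 5804 to 6800 units in exposed embryos. Of these 6, 5 had a log2 difference below 0 and 1 above, with a median of -0.08. Dcx was the 1 neural gene lower in every exposed embryo than in both controls (log2 difference -0.77, adjusted p = 0.0676 in limma). The 6 heart muscle genes gave 8321 and 8607 units in the controls and 9119 to 10874 units in exposed embryos. Of the 6 endothelial genes, 5 were tested and 4 had a log2 difference below 0, with a median of -0.22, and Pecam1 was lower in every exposed embryo than in both controls (log2 difference -0.31, adjusted p = 0.379). Their summed signal was 2139 and 2173 units in the controls and 1751 to 2454 units in exposed embryos. The 4 trophoblast and decidua genes on the array gave 672 and 755 units in the controls, 1269 units in exposed no NTD embryo 1 and 698 to 736 units in the other exposed embryos. Of these 4, Prl8a2 and Tpbpa were below the filter. The part of these cell types in the Il6st and Stat3 differences was not tested.

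**Figure D2:**
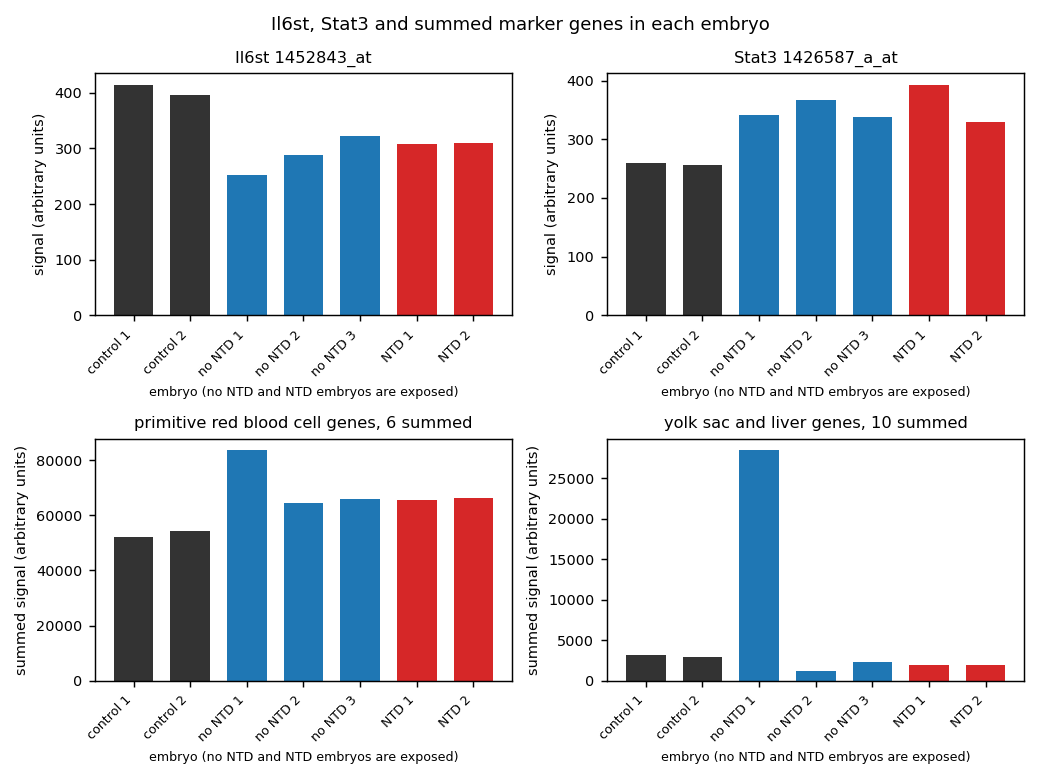
Signal of Il6st 1452843_at and Stat3 1426587_a_at in arbitrary units, and summed signal of 6 primitive red blood cell genes and 10 yolk sac and liver genes, 1 bar for each embryo. Il6st is lower and the red blood cell sum higher in all 5 exposed embryos than in both controls, and the yolk sac sum is high in exposed no NTD embryo 1.

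Probe sets with signals most like those of Il6st 1452843_at were sought among the 13399 tested ones with 1 gene symbol, by the Pearson r of log2 signals over the 7 embryos. The highest were Nipa2 (r = 0.997), which encodes a magnesium transporter, Mocs2 (0.995), a subunit of molybdopterin synthase, and Edem3 (0.995), which acts in the breakdown of misfolded glycoproteins, then Scg5 (0.988) and the peptidase gene Tpp2 (0.988). Nipa2, for example, gave 1125 and 1086 units in the controls and 723 to 891 units in exposed embryos. The lowest were Slc2a4 (-0.992), the insulin-responsive glucose transporter, Necab3 (-0.991), Stab1 (-0.989), Dusp2 (-0.987) and the embryonic globin gene Hbb-bh1 (-0.987). These are descriptions: the embryos share litters, and among so many probe sets some correlations over 7 points are close to 1.

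Lifr, the subunit that pairs with gp130 to bind leukemia inhibitory factor, had 1 tested probe set. Lifr 1454984_at gave 328 and 273 units in the controls, 243, 473 and 189 units in the exposed embryos without NTD, and 166 and 288 units in those with NTD. The exposed embryos lay on both sides of the controls, and exposed no NTD embryo 2 was the highest of all. The log2 difference was -0.24 with a 95% interval of -0.98 to 0.50 (adjusted p = 0.761). The interval is wide, and it leaves room for lower and for higher expression. The log2 difference was -0.09 without exposed NTD embryo 1, -0.11 without control embryo 1, -0.14 without exposed no NTD embryo 3, -0.37 without control embryo 2 and -0.47 without exposed no NTD embryo 2. The other probe sets of Lifr, 1450207_at and 1425107_a_at, were below the filter in every embryo, with signals of 19.7 to 86.1 and 14.6 to 62.3 units.

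Jak1, the kinase most used by gp130, had the smallest standard error of the 14 tested probe sets. Jak1 1433805_at gave 829 and 794 units in the controls and 739.7 to 803 units in exposed embryos, with a median of 782 units. The log2 difference was -0.06 (SE 0.12, adjusted p = 0.833), and its 95% interval of -0.32 to 0.19 leaves little room for a large change of this signal in either direction. Jak1 1433803_at gave 453 and 449.6 units in the controls and 450.2 to 691 units in exposed embryos, with a log2 difference of 0.21 (95% interval -0.18 to 0.61, adjusted p = 0.589). Exposed no NTD embryo 1 was the highest at 691 units, and without it the log2 difference was 0.11. Jak1 1433804_at was below the filter in all embryos, at 72.2 and 84.3 units in the controls and 11.8 to 75.2 units in exposed embryos. Its log2 difference in the limma fit without a filter was -1.24 (95% interval -2.71 to 0.22, adjusted p = 0.464). The annotation lists all 3 under the same transcript sequence.

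Jak2, the second kinase of the receptor, gave differences of opposite sign with its pair of probe sets. Jak2 1421066_at gave 384 and 303 units in the controls and 352 to 419.7 units in exposed embryos, a log2 difference of 0.15 (95% interval -0.17 to 0.48, adjusted p = 0.642). Jak2 1421065_at gave 233 and 342 units in the controls and 214 to 295 units in exposed embryos, a log2 difference of -0.20 (95% interval -0.65 to 0.24, adjusted p = 0.658). The controls differed from each other in opposite directions in this pair, and over the 7 embryos the log2 signals of the pair had a Pearson r of -0.74. Both signs turned when control embryo 2 was left out.

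Stat3 differed between its probe sets as well. Stat3 1426587_a_at gave 259.9 and 257 units in the controls, 341, 366 and 338 units in the exposed embryos without NTD, and 393 and 329.8 units in those with NTD. All 5 exposed embryos were above both controls, which held for 1 of the 14 tested members and for 11.4% of all tested probe sets. The control mean was 258 ± 2.24 units (SD, n = 2) and the exposed mean 354 ± 25.7 units (SD, n = 5), a ratio of 1.37 of exposed over control. The log2 difference was 0.45 (SE 0.14, 95% interval 0.14 to 0.76), with an unadjusted p of 0.00854 and an adjusted p of 0.170 in limma. The exact permutation test gave p = 0.0476, again the smallest possible.

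The other Stat3 probe sets did not show this pattern. Stat3 1460700_at gave 302 and 236 units in the controls and 222 to 384 units in exposed embryos, a log2 difference of 0.11 (95% interval -0.39 to 0.62, adjusted p = 0.850). Stat3 1424272_at gave 205 and 193 units in the controls and 104 to 334 units in exposed embryos, a log2 difference of -0.11 (95% interval -0.98 to 0.77, adjusted p = 0.922). In exposed embryos these spread on both sides of the controls, and over the 7 embryos their log2 signals ran against each other (Pearson r = -0.91, a description). Exposed no NTD embryo 1 was the highest of the 7 with 1460700_at and the lowest with 1424272_at. The deposited values do not tell which Stat3 transcripts each probe set reads.

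Socs3, the feedback inhibitor, gave signals close to the 40th percentile that the filter uses with its tested probe sets. Socs3 1416576_at gave 181 and 88.8 units in the controls and 89.9 to 187 units in exposed embryos, a log2 difference of 0.14 (95% interval -0.63 to 0.91, adjusted p = 0.878). Socs3 1455899_x_at gave 152 and 102 units in the controls and 74.6 to 136 units in exposed embryos, a log2 difference of -0.12 (95% interval -0.84 to 0.59, adjusted p = 0.886). With 1416576_at the controls alone spanned most of the range of the exposed embryos, and both intervals are wide, so a moderate difference of Socs3 was not detectable with these arrays. Socs3 1456212_x_at, below the filter, gave 66.9 and 74.9 units in the controls and 62.7 to 159 units in exposed embryos.

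Pias3, the inhibitor of STAT3 binding to DNA, had both probe sets tested. Pias3 1451115_at gave 319 and 426 units in the controls and 279 to 327 units in exposed embryos, a log2 difference of -0.30 (95% interval -0.64 to 0.05, adjusted p = 0.377). It rested largely on control embryo 2, without which the log2 difference was -0.09, while without control embryo 1 it was -0.50. Pias3 1421646_a_at gave 306 and 286 units in the controls and 272 to 390.0 units in exposed embryos, a log2 difference of 0.01 (95% interval -0.38 to 0.39, adjusted p = 0.993).

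**Figure D3:**
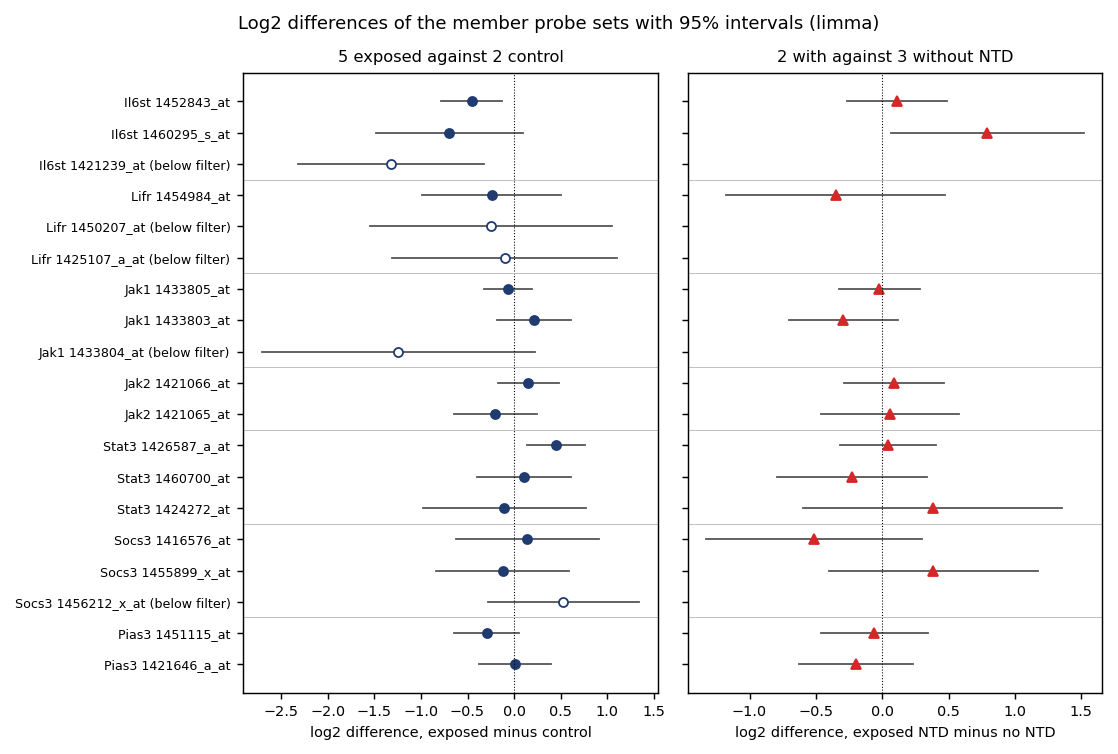
Log2 differences of the member probe sets with 95% intervals from limma, exposed minus control on the left and exposed with minus without NTD on the right, with open circles for probe sets below the filter, read from the fit without one. On the left the intervals of Il6st 1452843_at, Il6st 1421239_at and Stat3 1426587_a_at lie clear of 0, and on the right that of Il6st 1460295_s_at does.

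Exposed embryos with an NTD were then compared with exposed embryos without one. None of the 14 tested members was called at an adjusted p under 0.05 in limma, as was true of 0% of all tested probe sets. At an unadjusted p under 0.05, 1 of the 14 differed, with a background of 3.02%. This was Il6st 1460295_s_at, where the mean was 166 units with NTD and 98.3 units without, a log2 difference of 0.79 (SE 0.32, 95% interval 0.06 to 1.52, adjusted p = 0.999). The brightest Il6st probe set did not share it, with a log2 difference of 0.11 (95% interval -0.27 to 0.49). For Stat3 1426587_a_at the log2 difference was 0.05 (95% interval -0.31 to 0.41). Without exposed no NTD embryo 1, 0 of the 14 had an unadjusted p under 0.05 in limma. The count was 3 without exposed no NTD embryo 2 and 1 without exposed no NTD embryo 3. It also changed when certain embryos of the other groups were left out, so it did not depend on exposed no NTD embryo 1 alone. Those fits leave 1 embryo in a group, so their counts are not given. Exposed no NTD embryo 1 gave the lowest signal of Il6st 1460295_s_at, at 66.4 units.

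Taken separately, both sets of exposed embryos were also compared with the same 2 controls, so these values are not independent of each other or of those above. Without NTD, 0 of the 14 members were called, with 0.295% of all tested probe sets called, and 3 of the 14 had an unadjusted p under 0.05, with 16.9% of all so. These were Il6st 1452843_at at -0.50, Il6st 1460295_s_at at -1.01 and Stat3 1426587_a_at at 0.43 on the log2 scale. With NTD, 0 of the 14 were called, as were 0% of all, and 1 had an unadjusted p under 0.05, with 7.7% of all so. The log2 differences of the same probe sets were there -0.39, -0.22 and 0.48, the last being the 1 under 0.05.

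The other genes of the pathway were then counted by role, with the brightest probe set of each gene. Over 6 lists, 47 genes were tested and 0 were called at an adjusted p under 0.05 in limma. With array quality weights, which give exposed no NTD embryo 1 the lowest weight (0.43), 4 of the 47 genes were called, where 3.37% of all tested probe sets were called and 0 of the 14 members. They were Cntfr, Myc, Fos and Ifngr1, at adjusted p values of 0.0413 to 0.0496. At an unadjusted p under 0.05 the counts of the lists below stand against the 7.63% higher and 8.52% lower of all tested probe sets given above. All 5 exposed embryos lay above both controls in 11.4% and below them in 13.4% of all.

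Of the interleukin 6 family ligands, Clcf1 and Ctf1 passed the filter, with log2 differences of -0.09 and 0.00. Il6, Lif, Il11 and Ebi3 were below the filter, and the other ligands were not analysed here. Of the other receptors of the family, 2 were tested and 1 had an unadjusted p under 0.05. Cntfr, the binding subunit for ciliary neurotrophic factor, gave 249.7 and 280.1 units in the controls and 336 to 581 units in exposed embryos, a log2 difference of 0.67 (SE 0.20, adjusted p = 0.149). Il6ra, the binding subunit for interleukin 6, gave 185 and 143 units in the controls and 194 to 315 units in exposed embryos, a log2 difference of 0.49 (SE 0.23, adjusted p = 0.322). In both, every exposed embryo was above both controls, as in 11.4% of all tested probe sets. The median of the list was 0.58.

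Of the other JAK and STAT genes, 4 were tested and 2 had an unadjusted p under 0.05, both higher in exposed embryos, with a list median of 0.32. With the filter at the 60th percentile the value was -0.02. That is the log2 difference of Tyk2, so it is not a median of the same 4 genes. The higher genes were Jak3, the kinase of the common gamma chain receptors, with a log2 difference of 0.55 (adjusted p = 0.177), and Stat6, the interleukin 4 transducer, with 0.45 (adjusted p = 0.241). Stat5b gave 0.19 and Tyk2 -0.02. The dimmer probe set of Stat5b gave -0.21, so its sign is uncertain. Of 13 other inhibitors tested, 0 were higher and 2 were lower at an unadjusted p under 0.05, with a median of -0.01. The lower ones were Pias2 at -0.44 (adjusted p = 0.167) and Socs6 at -0.40 (adjusted p = 0.281), while Cish gave 0.35 and Pias4 0.23. A dimmer probe set of Pias2 gave -0.53.

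Of 16 STAT3 target genes tested, 3 were higher and 2 lower at an unadjusted p under 0.05, with a median of 0.21. Without control embryo 1 the median was 0.06. Myc, a growth regulator, gave 345 and 321 units in the controls and 427 to 576 units in exposed embryos, a log2 difference of 0.58 (SE 0.15, adjusted p = 0.111). Junb, a subunit of the AP-1 factor, gave 75.2 and 72.6 units in the controls and 106 to 181 units in exposed embryos, a log2 difference of 0.96 (SE 0.29, adjusted p = 0.156). Fos, another AP-1 subunit, ran the other way, with 276 and 263 units in the controls and 118 to 189 units in exposed embryos, a log2 difference of -0.82 (SE 0.23, adjusted p = 0.139). In all 3, which were named for their small p, the groups did not overlap. In the list as a whole all exposed embryos lay above both controls in 3 genes and below them in 2 of 16. The other lower gene was Hif1a, named here after its values were seen, at -0.37 (adjusted p = 0.205). Its brightest probe set is meant, and dimmer ones gave -1.37 (adjusted p = 0.0807), -0.34 and 0.17. The first of these dimmer probe sets, 1448183_a_at, was also called with array quality weights, at -1.27 (adjusted p = 0.0263), and is not in the count of 4 genes, which takes the brightest probe set of each gene. Vegfa, the vascular growth factor, gave a log2 difference of 0.78 (SE 0.26, adjusted p = 0.186) with its brightest probe set and 0.31 with another. Most of these genes are also targets of other pathways, so the list does not measure STAT3 activity by itself. Of 10 cytokine receptors outside the family, 1 was higher and 1 lower at an unadjusted p under 0.05, with a median of 0.11. Ifngr1, the interferon gamma receptor, gave -0.71 (adjusted p = 0.183) and Epor, the erythropoietin receptor of red blood cell precursors, gave 0.67 (adjusted p = 0.296), beside the higher red blood cell genes given above. Il13ra1 gave 0.91 (adjusted p = 0.458) and Ghr 0.11.

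**Figure D4:**
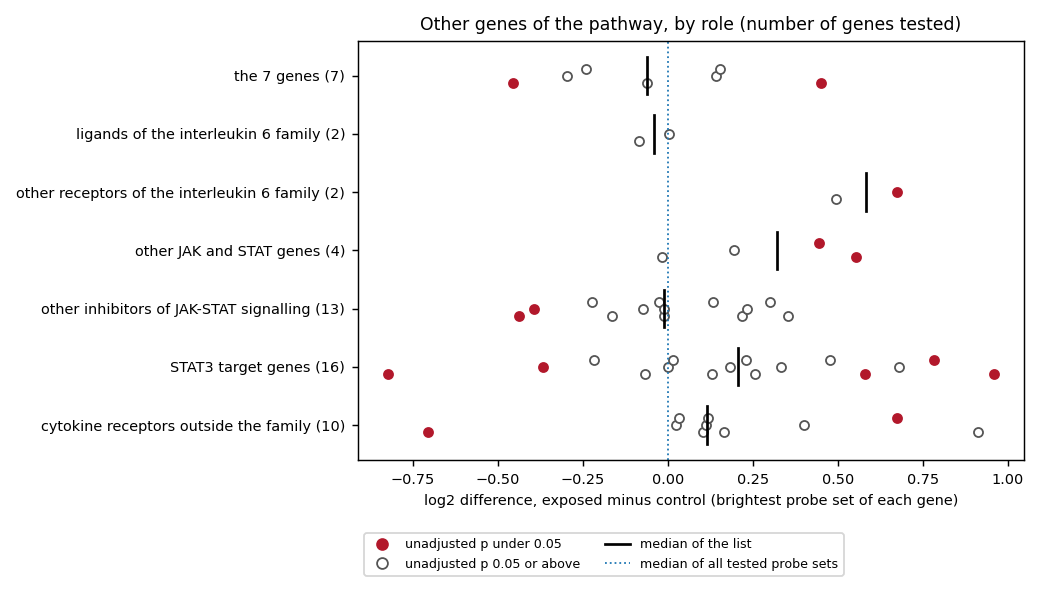
Log2 difference, exposed minus control, of each tested gene in the 7 genes and the 6 other lists of the pathway, 1 point a gene, filled where the unadjusted p was under 0.05, with a black line at each list's median and a dotted line at the median of all tested probe sets. Medians lie between -0.06 for the 7 genes and 0.58 for the other receptors of the family, of which 2 were tested.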

How the data were processed

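RNA from 7 single whole embryos was labelled with biotin and hybridised to Affymetrix 430A 2.0 arrays. The deposited values are linear intensities that the authors computed with MAS5, in a version that the sources used here do not give. The platform annotation gave 1 symbol to 20393 of 22690 probe sets, several to 691 and none to 1606, and 64 control probe sets were left out. Groups came from the sample labels. Signals were floored at 1 and log2-transformed. A probe set was tested if its signal reached the 40th percentile on at least 2 arrays. The fits used limma 3.58.1 (R 4.3.3), with the spread allowed to follow the signal, for 5 exposed against 2 control embryos and for 3 groups by NTD. Calls were made at an adjusted p (Benjamini-Hochberg) under 0.05. The code was tested on simulated data. Named were all member probe sets, up to 4 genes of smallest p per list, and the 5 most and 5 least like Il6st 1452843_at. Some marker genes were also named, and the marker lists were otherwise given as sums. The members and lists were chosen with earlier results of these data known. Alternatives covered scaling, floor, offset, filter, trend, weights, the methods' t-test and single embryos left out. Arrays hold no counts, so their number sets the precision. Promoter windows are from RefSeq, in which all 7 genes matched. Other arrays of the study were not analysed here.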

Additional observations from a re-analysis of the deposited data

Results flagged for a closer look

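The Pias3 probe set 1421646_a_at held 1 exposed embryo far from the others: exposed no NTD embryo 3 had a signal of 390.0 units, while the other 4 exposed embryos lay between 272 and 283 units and the controls at 306 and 286 units. The gap to the nearest exposed embryo was 0.90 of the range of the 5 exposed embryos, above Dixon's critical value of 0.71. All 19 member probe sets were checked in this way, and chance flags about 1 in 20 groups. With the other Pias3 probe set, 1451115_at, the same embryo had 302 units, between the other exposed embryos.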

How the results depend on the processing

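No member probe set was called under any of the 18 alternatives to exposed against control, or under the 10 run for the comparisons by NTD (quantile normalization, no trend, no filter and each embryo left out), while the number called among all probe sets in exposed against control ranged from 0 to 491, the latter with array quality weights, against 25 in the fit reported. The called pathway genes went from 0 to 4 with array quality weights. Il6st 1452843_at stayed between -0.50 and -0.40 and Stat3 1426587_a_at between 0.39 and 0.47 on the log2 scale, with adjusted p values of at least 0.0806 and 0.0665. Il6st 1460295_s_at ranged from -1.01, in exposed embryos without NTD alone, to -0.48. Of 232 recomputed log2 differences of tested members, 14 changed sign, in 7 of the 14 probe sets, none of them over 0.37 in size. With 1 embryo left out at a time, Jak2 1421066_at ranged from -0.017 to 0.33, Jak2 1421065_at from -0.48 to 0.076, Stat3 1460700_at from -0.069 to 0.29, Stat3 1424272_at from -0.32 to 0.10, Socs3 1416576_at from -0.37 to 0.66, Socs3 1455899_x_at from -0.41 to 0.16 and Pias3 1421646_a_at from -0.092 to 0.054. With array quality weights Stat3 1424272_at was 0.049 and Pias3 1421646_a_at -0.022. Lifr 1450207_at and 1425107_a_at, both below the filter, ranged from -1.27 to 0.77 and from -0.29 to 0.24 with 1 embryo left out (0.050 without control embryo 1), and 1425107_a_at was 0.21 in exposed embryos without NTD; these fits without a filter were added after seeing the data. The causes were not tested.

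The replicate numbers of the labels were not taken as pairs. The deviations of same-numbered embryos from their group means correlated at -0.25 to 0.03, and those of differently numbered embryos at -0.16 to 0.25. In a group of 2 the deviations are equal and opposite, so these correlations cannot decide on pairing. With the number as a replicate block, 0 members and 0 of all probe sets were called, Stat3 1424272_at was 0.013 and Pias3 1421646_a_at -0.092. These log2 differences equal those without exposed no NTD embryo 3, the only embryo of its number. With 2 controls from 1 litter, a small difference could not be seen.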
